A study of Homo sapiens with 6 samples.

Results

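The comparison described here set PC-3 cells treated with BenSer against untreated PC-3 cells, gene by gene. Genes were kept where the mean of a group came to 5 reads or more, which was true of 18976 of the 19491 genes listed. In the group with more reads, 165 genes had a mean of 4.5 reads and fell just outside this limit, whereas 185 genes had a mean of 5 and 222 genes a mean of 5.5 and fell just inside. PC-3 is an established human prostate cancer line that grows without androgen. The cells were grown with serum and were treated for 48 h with 10 mM BenSer (O-benzyl-serine), or with nothing according to the labels, and total RNA was sequenced with a stranded total RNA kit. A further group received 1 mM GPNA (L-γ-glutamyl-p-nitroanilide) for the same time and is used only for values set beside those of BenSer. The methods give water as the diluent of both compounds and vehicle as the general control treatment. All groups come from 1 cell line, and no label ties a library to a separate culture.

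BenSer is a serine derivative that competes with neutral amino acids for transport by ASCT2, the sodium-dependent glutamine transporter encoded by SLC1A5, and it has also been found to act on the leucine exchanger LAT1, encoded by SLC7A5 with its partner SLC3A2. Cells that run short of an amino acid sense uncharged tRNA through the kinase GCN2, which slows general translation and favours translation of the transcription factor ATF4, and ATF4 in turn switches on genes for amino acid synthesis and uptake. Short supply of leucine or glutamine also lowers mTORC1 activity, on which ribosome production, lipid synthesis and entry into the cell cycle depend. The question behind the comparison was what blocking this uptake does to the transcriptome of prostate cancer cells.

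The table holds 4 columns of values per group, and the methods describe as many replicates, but only 2 columns per group carry the name of a labelled sample and were analysed. They give reads per 1e6 reads of the library (CPM), from totals of 23227180 and 23077986 reads in the control and of 32178154 and 31943025 reads with BenSer. Between 52.2% and 52.7% of the reads were on listed genes. The spread between the columns of one group was close to that of read sampling alone (chi-square over its degrees of freedom 1.06 for control and 1.05 for BenSer), while columns of different groups gave 20.6 and 20.7. The analysed columns of a group were thus counted as 1 sample, so no p-value for BenSer is given here and no difference has a replicate check from these columns. A difference is log2 of the mean CPM plus 1 with BenSer minus that in the control, and a gene is called where it reaches 1.5-fold, or 0.585 on this scale. Intervals are exact Clopper-Pearson 95% intervals of the log2 ratio of the merged reads without the added 1, so for weakly expressed genes they lie further from 0 than the difference does. They cover counting error only. The defining epithelial and PC-3 markers were present in each column: KRT8 was at 287 and 292 CPM in the control and 273 and 278 CPM with BenSer, VIM at 186 and 188 and 145 and 142 CPM, and CD44 at 259 and 262 and 266 and 263 CPM. The androgen-driven genes KLK2 and KLK3 were not among the listed genes, nor was any of the 6 leukocyte markers. Of 6 fibroblast markers 4 were listed, with a summed level of 6.28 to 8.78 CPM, and of 4 endothelial markers only KDR was listed, at 3.08 to 4.32 CPM.

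In the BenSer columns 371 genes stood at least 1.5-fold above the control, which was 1.96% of the genes with enough reads, and 300 genes were at least 1.5-fold lower, or 1.58%. The higher genes reached further from 0 than the lower ones. At least 2-fold higher were 83 genes (0.437%), whereas 9 genes (0.0474%) were at least 2-fold lower. The median difference over all genes was -0.03, and the lowest and highest 1% lay beyond -0.64 and 0.76. Of all 18976 genes, 10507 were below the control by any margin and 8469 above it. Counts of list members above or below the control are to be read beside this split. Counts of called members are to be read beside the 1.96% and 1.58% called over all genes. Of the 10134 genes with a mean of at least 5 CPM in either group, 281 were at least 1.5-fold higher and 238 lower. The split depended on the scaling: with TMM scaling 432 genes were higher and 220 lower, so that 66.3% of the called genes were higher in place of 55.3%. For all 371 higher genes both BenSer columns lay above both control columns, as they did for 28.5% of all genes. For all 300 lower genes they lay below, as for 37.5% of all genes. Columns of a group differ by little more than read sampling, so the 1.5-fold call all but fixed this order. It is no further evidence for the called genes. Between the columns of one group, 36 genes differed by 1.5-fold in the control and 6 with BenSer. Under 5 CPM in both groups were 90 of the higher and 62 of the lower genes, for which the added 1 holds the difference down. In a plot of difference against level, the interferon-stimulated genes MX2, RSAD2 and MX1 stood furthest above 0, and genes of the S and G2/M phases lay below 0 at every level.

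**Figure D1:**
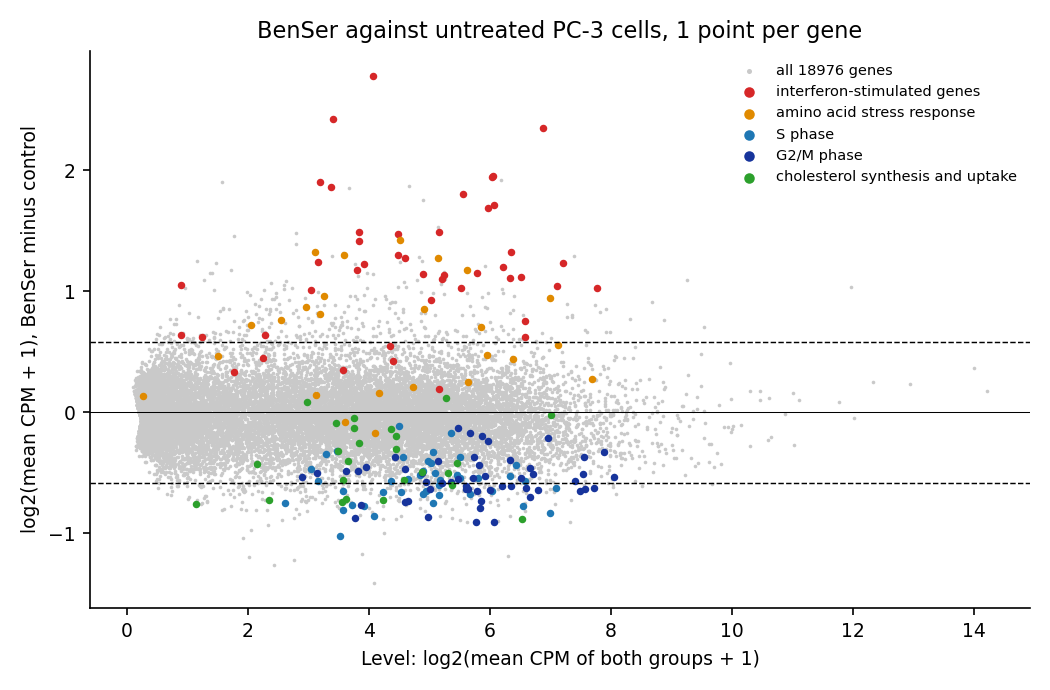
Difference between BenSer and control (y axis, log2 of mean CPM plus 1) against the level of each gene (x axis, log2 of the mean CPM of both groups plus 1), with 1 point for each of 18976 genes and coloured points for members of 5 gene lists. Dashed lines mark 1.5-fold, and 39 of 45 interferon-stimulated genes lie above the upper line, whereas all 42 S phase and all 54 G2/M genes lie below 0.

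The genes were read through 45 lists of pathways and gene families, which hold 1414 of the 18976 genes, 109 of the 371 higher genes and 100 of the 300 lower genes. The highest differences belonged to interferon-stimulated genes, a set of antiviral effectors and sensors that interferon-activated transcription factors, IRF9 among them, switch on. All 45 measured members were above the control, 39 of them by at least 1.5-fold and 33 by at least 2-fold, and none was lower by 1.5-fold. Of all genes, 1.96% were higher by at least 1.5-fold and 0.437% by at least 2-fold. The median difference of the list was 1.15 against -0.03 over all genes. MX2 (chr21:42733926-42781320, hg19), a dynamin-like GTPase that restricts viruses, had 3.53 and 3.08 CPM in the control and 29.3 and 27.8 CPM with BenSer. Its mean level was 8.64 times that of the control, with a difference of 2.78 and an interval of 2.87 to 3.36. Its neighbour MX1, a related GTPase, went from 36.9 and 38.3 to 194 and 198 CPM, a difference of 2.35 (2.31 to 2.45). In both genes the BenSer columns lay above the control columns. Columns of a group differ by little more than read sampling, so they give no spread between cultures to set this against.

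RSAD2, which encodes the antiviral enzyme viperin, and CMPK2, a mitochondrial nucleotide kinase that lies next to it on chromosome 2, were both near the low end of expression in the control. RSAD2 had 2.54 and 2.12 CPM in the control against 16.7 and 17.2 CPM with BenSer (2.43, interval 2.57 to 3.16), and CMPK2 had 3.49 and 3.47 against 16.3 and 14.2 CPM (1.86, 1.89 to 2.39). OAS2 and OAS1 make the 2-5A messenger that activates RNase L. OAS2 had 25.2 and 27.4 CPM in the control and 105 and 105 CPM with BenSer (1.96), and OAS1 had 19.7 and 20.5 and 74 and 71.4 CPM (1.80). IFIT1, which binds viral RNA, had 31.4 and 29.1 and 102 and 101 CPM (1.72). Of the membrane proteins IFI6 and IFITM1, the first had 25.2 and 26.8 and 103 and 103 CPM (1.95) and the other 2.80 and 2.90 and 13.4 and 13.4 CPM (1.90), and IFI44L had 28.1 and 29.4 and 96 and 93.6 CPM (1.69). In each of these genes, picked for large differences, both BenSer columns lay above both control columns, as they did in 28.5% of all genes. Summed over the list, the level was 1162 and 1169 CPM in the control columns and 2790 and 2811 CPM in the BenSer columns.

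The promoter that RefSeq gives for RSAD2 at the more upstream of its start sites in the table is shown because RSAD2 had the largest difference among the list members whose promoter held the interferon element searched for. The sequence covers the 250 bases before the start (GRCh38.p14, chr2:6865635-6865884, plus strand), and capitals mark the letters GAAANNGAA, the core spacing that interferon-activated factors read. In hg19, RSAD2 (7005688-7038370, plus strand) and CMPK2 (6980701-7006766, minus strand) overlap at their starts. The element may thus lie at the start of CMPK2 as well, and the 2 genes were not told apart here.

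RSAD2 promoter: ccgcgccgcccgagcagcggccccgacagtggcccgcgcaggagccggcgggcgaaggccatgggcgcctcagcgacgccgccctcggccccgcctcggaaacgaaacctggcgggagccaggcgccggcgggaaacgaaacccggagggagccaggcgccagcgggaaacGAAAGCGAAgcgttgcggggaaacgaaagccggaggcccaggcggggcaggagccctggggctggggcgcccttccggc

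On either strand, GAAANNGAA was present in 24 of the 36 interferon-stimulated genes with a promoter in the table (66.7%), against 896 of 11767 genes with enough reads and a promoter (7.61%). A gene counts as holding a motif if any of its promoters does, and the match describes letters only.

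MHC class I genes present peptides on the cell surface and are themselves interferon-responsive. Of 16 measured members 7 were higher by at least 1.5-fold, against 1.96% of all genes, and none was lower by that much (median 0.48). TAP1, the peptide transporter into the endoplasmic reticulum, had 10.1 and 8.58 CPM in the control and 20.8 and 19.3 CPM with BenSer (1.02, interval 0.94 to 1.26), and the trimming peptidase ERAP1 had 32.7 and 33.1 and 59.9 and 56.4 CPM (0.80). HLA-C, whose reads can be shared with other HLA genes, had 47.2 and 51.7 and 77.8 and 83.2 CPM (0.69), and the class I transactivator NLRC5 had 3.10 and 2.73 and 5.22 and 5.85 CPM (0.74). Of 28 inflammatory cytokines and NF-kB genes, 1 was higher by 1.5-fold and 2 were lower, with a median of -0.04. The cytokine CSF1 had 2.76 and 2.64 CPM in the control and 5.56 and 5.45 CPM with BenSer (0.81), whereas the neutrophil attractants CXCL1 (-0.62) and CXCL6 (-0.64) were lower.

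**Figure D2:**
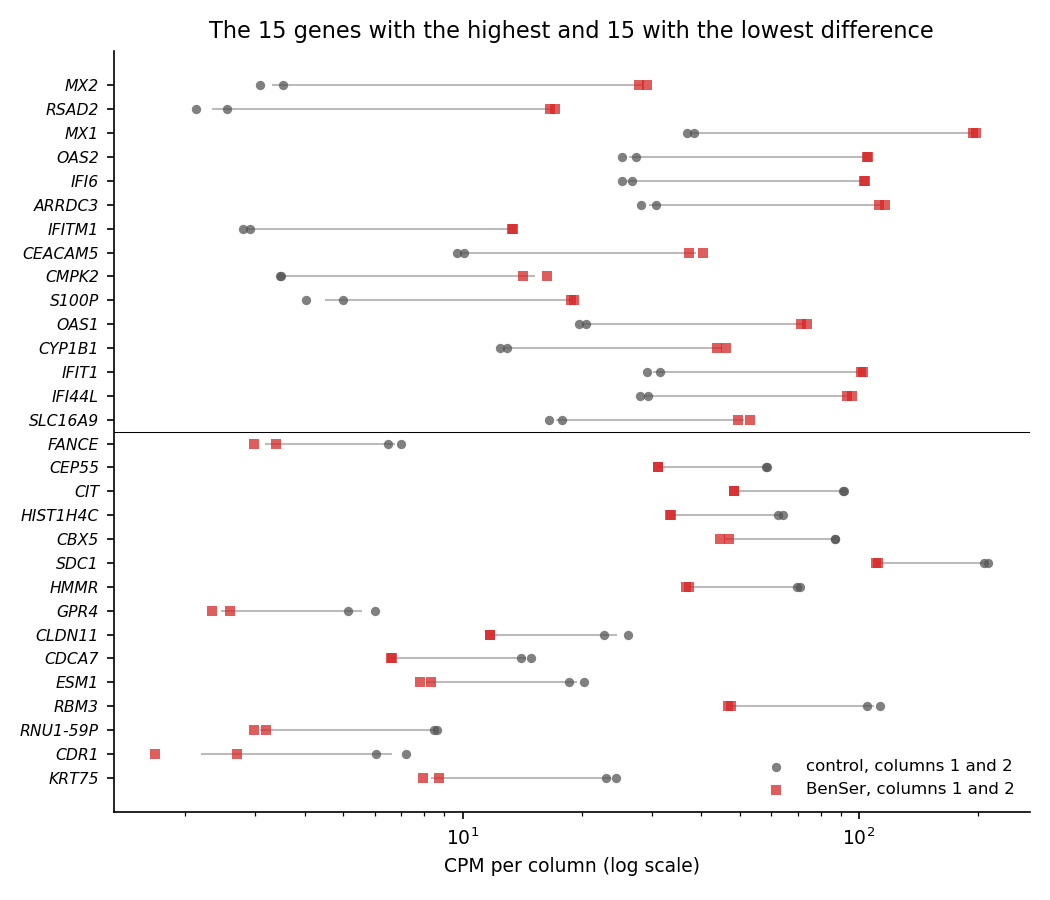
CPM in each column (x axis, log scale) of the 15 genes with the highest and the 15 with the lowest difference among genes of at least 5 CPM in either group, with grey circles for control columns, red squares for BenSer columns and lines joining the means. The columns of a group sit close together, and MX2 has the widest gap. The groups do not overlap in any of the 30 genes, which were picked for their large differences. Over all genes, both BenSer columns lay above both control columns in 28.5% and below them in 37.5%.

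Genes of the response to amino acid shortage were the other group with large positive differences. Of 25 measured members 13 were at least 1.5-fold higher, 5 of them by at least 2-fold, none was lower by 1.5-fold, and the median was 0.71. Of all genes, 1.96% were higher by at least 1.5-fold and 0.437% by at least 2-fold. GDF15 (chr19:18485541-18499986, hg19), a secreted stress hormone, had 11.2 and 11.8 CPM in the control and 32.6 and 32.4 CPM with BenSer (1.42, interval 1.36 to 1.64). CHAC1, an enzyme that degrades glutathione, had 3.83 and 3.99 and 11.1 and 11.6 CPM (1.33, 1.30 to 1.78). JDP2, a bZIP transcription factor, had 6.11 and 5.85 and 16.1 and 16.3 CPM (1.30), and NUPR1, a small stress-induced chromatin protein, had 20.3 and 19.2 and 49.7 and 48.8 CPM (1.27). These 4 genes, picked for large differences, are induced through ATF4 in other settings. In each of them both BenSer columns lay above both control columns, as in 28.5% of all genes. With a pseudocount of 5 CPM the median of the list was 0.45.

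The CHAC1 promoter is shown because CHAC1 had the largest difference among the stress genes whose promoter held a C/EBP-ATF element, the composite site that ATF4 binds with a C/EBP partner (GRCh38.p14, chr15:40953221-40953470, plus strand). Capitals mark the letters TGATGNAA, here read on the opposite strand and 209 bases before the start.

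CHAC1 promoter: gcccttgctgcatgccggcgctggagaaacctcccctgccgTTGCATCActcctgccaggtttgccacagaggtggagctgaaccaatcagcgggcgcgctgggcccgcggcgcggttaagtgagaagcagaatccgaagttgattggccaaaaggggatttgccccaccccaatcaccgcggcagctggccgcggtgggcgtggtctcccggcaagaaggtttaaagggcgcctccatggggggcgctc

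The element was present in 5 of 21 stress genes with a promoter in the table (23.8%) and in 304 of all 11767 (2.58%).

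Among enzymes of amino acid metabolism, a few genes stood out on either side. ASNS, which makes asparagine from aspartate and glutamine, had 29.5 and 29.3 CPM in the control and 68.2 and 67.6 CPM with BenSer (1.18, interval 1.12 to 1.30), and was the only one of 18 genes of glutamine, asparagine and proline metabolism at least 1.5-fold higher. In that list PYCRL, a proline synthesis enzyme, was lower (12.9 and 13.3 and 7.64 and 6.79 CPM, -0.78) and the median was -0.05. PHGDH and PSAT1, the first steps of serine synthesis, were at least 1.5-fold higher: PHGDH had 57 and 55.5 CPM in the control and 109 and 111 CPM with BenSer (0.96), and PSAT1 had 22 and 22 and 36.5 and 36.5 CPM (0.70). The glycine cleavage gene GCSH (-0.63) was lower, and the serine and one-carbon list had 2 of 16 genes called in each direction and a median of -0.30. Of 20 cytosolic aminoacyl-tRNA synthetases none was higher by 1.5-fold and VARS, for valine, was lower (66.3 and 70.8 and 42.2 and 42.6 CPM, -0.68).

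Amino acid transporters were higher by at least 1.5-fold in 7 of 27 measured members and lower by that much in none, with a median of 0.23. The shares over all genes were 1.96% higher and 1.58% lower. The gene of the transporter that BenSer blocks, SLC1A5 (chr19:47278140-47291851, hg19), had 41.5 and 41.4 CPM in the control and 62.2 and 62.3 CPM with BenSer. Its difference of 0.58 (0.51 to 0.67) stopped just short of 1.5-fold and passed it with TMM scaling (0.62). SLC7A5 had 59.8 and 61.2 and 93.5 and 96.6 CPM (0.64, 0.59 to 0.72), and SLC3A2, the heavy chain shared by several exchangers, had 60.8 and 57 and 109.8 and 104 CPM (0.85, 0.80 to 0.92). The largest difference of the list was that of the glycine transporter SLC6A9, with 8.35 and 7.41 and 15.5 and 15.2 CPM (0.88). SLC7A11, the cystine and glutamate exchanger, had 43.8 and 41.9 and 71.4 and 69.7 CPM (0.71). Among 31 mTORC1 sensing genes only the brakes SESN2 (4.86 and 4.20 and 9.35 and 8.86 CPM, 0.87) and DDIT4 (3.32 and 3.38 and 6.03 and 6.76 CPM, 0.77) were called, both higher, and the list median was 0.07.

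Cell cycle genes were lower throughout, whereas 10507 of all 18976 genes were below the control and 1.58% were at least 1.5-fold lower. All 42 S phase genes were below the control, 19 of them by at least 1.5-fold, with a median of -0.57 and a range of -1.02 to -0.11. All 54 G2/M genes were below it too, 24 by at least 1.5-fold, with a median of -0.56 and a range of -0.91 to -0.13. In RNA from a whole culture, fewer cells in a phase and less RNA per cell cannot be told apart. CDCA7, a chromatin remodelling partner, had 14.1 and 14.9 CPM in the control and 6.59 and 6.64 CPM with BenSer (-1.02, interval -1.31 to -0.95). The S phase transcription factor E2F8 had 20.8 and 21.2 and 11.5 and 10.8 CPM (-0.86), and RRM2, the small subunit of ribonucleotide reductase, had 162 and 164 and 91.7 and 90.7 CPM (-0.83). Thymidylate synthase, TYMS, had 14.1 and 14.4 and 7.46 and 7.92 CPM (-0.81). RRM2 and TYMS were also the lowest of 26 nucleotide synthesis genes, of which 7 were at least 1.5-fold lower (median -0.44), TK1 among them (-0.76).

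Of the G2/M genes, HMMR, a microtubule protein of the spindle, had 71.2 and 69.6 CPM in the control and 37.2 and 36.7 CPM with BenSer (-0.91, interval -1.01 to -0.85). CBX5, the heterochromatin protein HP1α, had 87 and 87 and 44.8 and 47 CPM (-0.91), and the chromosomal passenger component CDCA8 had 38.9 and 40.5 and 21.2 and 21.5 CPM (-0.87). Outside the G2/M list, CIT and CEP55, which act at the midbody in the last step of division, were among the 15 lowest genes. CIT had 91.6 and 90.9 and 48.4 and 48.4 CPM (-0.90) and CEP55 had 58.3 and 58.6 and 31 and 31.1 CPM (-0.89). FANCE, of the Fanconi anaemia complex that repairs crosslinks and also outside that list, had 6.50 and 6.98 and 2.98 and 3.38 CPM (-0.89). Replication-dependent histone genes have mRNAs that lack a poly(A) tail and accumulate in S phase. They were at least 1.5-fold lower in 20 of 59 members (median -0.46), against 1.58% of all genes, and 6 members were above the control. HIST1H4C had 64.4 and 62.4 CPM in the control and 33.6 and 33.3 CPM with BenSer (-0.90), although reads of such near-identical genes can be split between copies. The inhibitors of cyclin-dependent kinases CDKN1A and CDKN2B and the cyclin-like CCNG2 were the 3 of 19 growth arrest genes that were at least 1.5-fold higher. CDKN1A, or p21, had 8.18 and 8.45 and 16.9 and 17.3 CPM (0.96, 0.87 to 1.21), CCNG2 had 15.5 and 16.6 and 29.9 and 28.7 CPM (0.83), and CDKN2B had 24.7 and 23.3 and 42.7 and 42.5 CPM (0.81).

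The promoters of HMMR and CDCA7 are shown as those of the most lowered G2/M and S phase genes that held the motif searched for. In the HMMR promoter (GRCh38.p14, chr5:163460382-163460631, plus strand) capitals mark TTTGAA, the cell cycle homology region, which occurs 28 and 22 bases before the start. In the CDCA7 promoter (chr2:173354622-173354871, plus strand) they mark TTTNNCGC, the E2F motif, read on the opposite strand 65 bases before the start.

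HMMR promoter: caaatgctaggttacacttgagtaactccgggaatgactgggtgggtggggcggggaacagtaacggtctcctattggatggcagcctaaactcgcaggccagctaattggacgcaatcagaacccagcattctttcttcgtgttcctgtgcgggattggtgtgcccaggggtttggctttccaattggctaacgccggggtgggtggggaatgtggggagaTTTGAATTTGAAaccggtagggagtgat

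CDCA7 promoter: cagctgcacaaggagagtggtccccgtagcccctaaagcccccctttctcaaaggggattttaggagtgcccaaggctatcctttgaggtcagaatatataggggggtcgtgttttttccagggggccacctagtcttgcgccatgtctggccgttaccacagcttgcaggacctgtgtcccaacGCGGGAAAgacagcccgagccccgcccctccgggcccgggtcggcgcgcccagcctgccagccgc

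TTTGAA was present in 25 of 44 G2/M genes with a promoter in the table (56.8%), against 12.4% of the 11767 promoters, and the NF-Y box CCAAT in 31 of 44 (70.5%) against 41.2%. The E2F letters were in 10.7% of the 11767 promoters, and their share among S phase genes is void because fewer than 80% of that list had a promoter in the table. The same holds for the cholesterol and NRF2 lists, for which the sterol element TCACNCCAC (1.18% of all promoters) and the antioxidant element TGACNNNGC (15.7%) were searched.

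**Figure D3:**
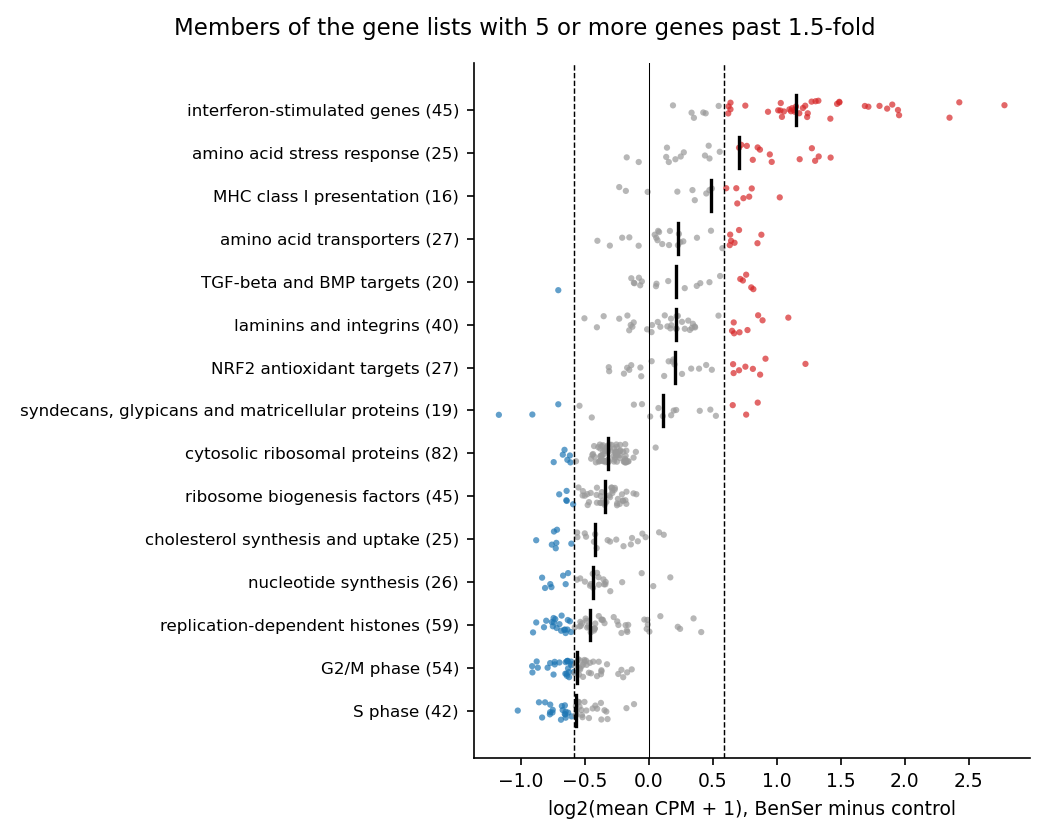
Difference between BenSer and control (x axis, log2 of mean CPM plus 1) for each measured member of the 15 pathway lists with 5 or more genes past 1.5-fold (y axis, number of measured members in brackets). Points are genes, red where at least 1.5-fold higher and blue where at least 1.5-fold lower, black bars are list medians and dashed lines mark 1.5-fold. The medians run from -0.57 for S phase to 1.15 for interferon-stimulated genes.

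Cholesterol genes were lower as well. Of 25 measured members of cholesterol synthesis and uptake 23 were below the control, 7 by at least 1.5-fold, and none was 1.5-fold higher (median -0.42). The share at least 1.5-fold lower was 1.58% over all genes. HMGCS1, which commits acetyl-CoA units to the mevalonate pathway, had 23.5 and 21.7 CPM in the control and 12.7 and 13.9 CPM with BenSer (-0.72), and ACAT2, the thiolase that makes acetoacetyl-CoA, had 13.5 and 13.9 and 8.42 and 7.17 CPM (-0.74). STARD4, a sterol carrier, had 5.42 and 5.37 and 3.36 and 2.38 CPM (-0.73). Of 19 genes of fatty acid synthesis and desaturation 15 were below the control, but only FASN, the fatty acid synthase, passed 1.5-fold (53.9 and 52.4 and 28.9 and 28.1 CPM, -0.88, interval -0.99 to -0.81). The desaturases FADS2 (-0.56) and FADS1 (-0.53) and the regulator SREBF1 (-0.54) stopped short of it, and the list median was -0.30.

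Several groups of the machinery of protein synthesis had medians below 0 and few called genes. Cytosolic ribosomal proteins were below the control in 81 of 82 members, with a median of -0.32, but only 6 were called. Over all genes, 10507 of 18976 were below the control and 1.58% were at least 1.5-fold lower. RPL12 had 334 and 333 CPM in the control and 210.2 and 208 CPM with BenSer (-0.67, interval -0.71 to -0.64). Many of these genes have processed pseudogenes that can share their reads. All 45 ribosome biogenesis factors were below the control, 5 by at least 1.5-fold (median -0.34), among them LTV1, for export of the small subunit (23.5 and 25.4 and 14.2 and 15.2 CPM, -0.70), and the nucleolar methyltransferase FBL (40.1 and 41.1 and 25.1 and 26.3 CPM, -0.64). All 19 elongation and poly(A)-binding genes were below it, 3 of them called (median -0.28), with EEF1B2 the lowest (153 and 154 and 98.8 and 99 CPM, -0.63). The other called members were the nucleolar protein NPM1 (-0.59) and HNRNPA1 (-0.59), and with TMM scaling none of the 3 reached 1.5-fold (EEF1B2 -0.58, NPM1 and HNRNPA1 both -0.54). The RNAs that host small nucleolar RNAs had a median of -0.39 over 19 genes with none called, whereas the 101 small nucleolar and Cajal body RNAs themselves had a median of -0.05, again with none called. SR proteins and hnRNPs had 2 of 60 genes called, both lower, and a median of -0.20.

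Nuclear genes of the mitochondrion followed the same direction. All 22 TCA cycle genes were below the control (median -0.32), but SDHA alone passed 1.5-fold. SDHA, the flavoprotein of succinate dehydrogenase, had 147 and 150.2 CPM in the control and 94.3 and 92.9 CPM with BenSer (-0.66, interval -0.72 to -0.62). Nuclear-encoded respiratory chain subunits were below the control in 69 of 75 genes (median -0.22, 2 called), with ATP5D, a subunit of the ATP synthase, the lowest (17.9 and 17.5 and 9.48 and 9.30 CPM, -0.85). Mitochondrial ribosomal proteins were below it in 70 of 75 genes, with none called and a median of -0.26. The 13 proteins encoded by mitochondrial DNA had a median of 0.10 with none called, from -0.12 to 0.34. Proteasome subunits had a median of -0.16 over 37 genes, and the 1 called gene was higher, namely PSMB9 of the interferon-inducible immunoproteasome (control columns 2.37 and 1.52 CPM, BenSer columns 4.32 and 3.82 CPM, difference 0.78).

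Several smaller groups held a few genes with large positive differences. TXNIP and ARRDC4, arrestin-like proteins that limit glucose uptake and are read-outs of the glucose sensor MondoA, were both higher, with 98.8 and 95.3 and 241 and 237 CPM for TXNIP (1.29) and 3.75 and 3.99 and 7.80 and 7.36 CPM for ARRDC4 (0.82). Their relative ARRDC3 lay among the 15 highest genes, with 28.2 and 30.9 CPM in the control and 112 and 116 CPM with BenSer (1.92, 1.87 to 2.04). None of the other 12 genes of the MYC and MondoA network was called. Retinoid metabolism held 2 called genes of 18, both higher and both by at least 2-fold: RDH10, which oxidises retinol, had 21.3 and 23.9 and 51.8 and 51.5 CPM (1.16), and DHRS3, which reduces retinal, had 48.6 and 46.3 and 96.1 and 98.5 CPM (1.02). NRF2 antioxidant targets were higher by at least 1.5-fold in 8 of 27 members and lower by that much in none, with a median of 0.20. The share at least 1.5-fold higher was 1.96% over all genes. AKR1C3, an aldo-keto reductase, had 6.80 and 7.67 and 18.7 and 17.8 CPM (1.22), though its close relatives can share its reads, and FTH1, the ferritin heavy chain, had 279 and 289.8 and 532 and 539 CPM (0.91, 0.89 to 0.94). The xenobiotic exporter ABCC3 had 42.9 and 40.7 and 79.9 and 74.5 CPM (0.87).

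Chaperones and other stress groups held few called genes. Of 21 heat shock chaperones 3 were higher by at least 1.5-fold and none lower (median -0.01), namely DNAJB4 (0.71), HSPA1A (57.3 and 55.5 and 91.3 and 90.9 CPM, 0.68) and its near-identical copy HSPA1B (0.63). Of 29 genes of the endoplasmic reticulum stress response DNAJB9 (0.80) and the sensor kinase ERN1 (0.63) were called, both higher (median 0.04). Autophagy genes had a median of 0.17 over 35 members, with WIPI1 (0.75) and the receptor SQSTM1 (92.2 and 86.7 and 141 and 141 CPM, 0.65) called, and lysosomal genes a median of 0.07 over 38 with none called. In the glycolysis and hypoxia list, ADM (0.83) and NDRG1 (572 and 562 and 913 and 933 CPM, 0.70) were the 2 called of 32 genes (median 0.02). Of 21 BCL2 family and death receptor genes BMF alone was called, with 2.37 and 3.16 CPM in the control and 6.34 and 6.23 CPM with BenSer (0.95). No gene was called among 24 AP-1 and immediate early genes, 22 ERK feedback targets, 18 YAP/TEAD targets and 4 metallothioneins, whose medians were -0.02, -0.01, -0.12 and 0.26.

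Genes of the cell surface and the matrix differed in both directions. Of 40 laminins and integrins 8 were at least 1.5-fold higher, against 1.96% of all genes, and none was lower by that much (median 0.22). LAMA3, which encodes a chain of laminin-332, the anchor of epithelial cells, was strongly expressed and had 389.9 and 393 CPM in the control and 837 and 832 CPM with BenSer (1.09, interval 1.07 to 1.12). The integrin ITGB6, which activates TGF-β, had 9.04 and 9.32 and 16.9 and 17.9 CPM (0.85). Of 20 TGF-β and BMP targets 5 were at least 1.5-fold higher and 1 lower (median 0.22), with THBS1 at 354 and 346 and 595 and 593 CPM (0.76), ID1 at 67.2 and 67.8 and 117 and 120.1 CPM (0.80) and PMEPA1 at 20.7 and 21.4 and 38.6 and 37.1 CPM (0.82). In contrast, the heparan sulphate proteoglycan SDC1 had 212 and 207 CPM in the control and 110.4 and 112 CPM with BenSer (-0.91, -0.96 to -0.87), and ESM1, a secreted proteoglycan, had 18.6 and 20.3 and 7.83 and 8.33 CPM (-1.17). The adhesion protein CEACAM5 (9.69 and 10.1 and 40.5 and 37.3 CPM, 1.87) and the calcium-binding protein S100P (4.99 and 4.03 and 19.1 and 18.8 CPM, 1.86) were among the 15 highest genes. MMP1, an interstitial collagenase, had 3.40 and 3.34 and 8.17 and 7.61 CPM (1.02), and OCLN, of tight junctions, had 23.7 and 20.9 and 36.9 and 36.5 CPM (0.69), the only 2 of 27 epithelial and mesenchymal markers called.

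KRT75, a keratin of hair follicle sheaths (chr12:52817854-52828155, hg19), had the lowest difference of all named genes, with 24.4 and 23.1 CPM in the control and 8.70 and 7.95 CPM with BenSer (-1.41, interval -1.66 to -1.36). It was the only one of 23 keratins called, and the abundant KRT18 and KRT7 had differences of -0.24 and 0.24. RBM3, an RNA-binding protein best known from its induction by cold, had 113 and 105 and 47.6 and 46.7 CPM (-1.19, -1.27 to -1.14). The tight junction protein CLDN11 had 26.2 and 22.7 and 11.7 and 11.7 CPM (interval -1.20 to -0.93) and the proton-sensing receptor GPR4 had 6.03 and 5.16 and 2.33 and 2.60 CPM (-0.93). CYP1B1, an oxidase of xenobiotics and steroids, had 12.4 and 12.9 CPM in the control and 43.9 and 46.2 CPM with BenSer (1.75), and SLC16A9, a carnitine and monocarboxylate carrier, had 16.5 and 17.9 and 53.2 and 49.6 CPM (1.53). The 15 lowest genes also held CDR1 (7.19 and 6.07 and 1.68 and 2.69 CPM, -1.26) and RNU1-59P (8.61 and 8.45 and 2.98 and 3.19 CPM, -1.22). CDR1 overlaps an antisense transcript whose reads cannot be told apart from its own unless counting used the strand, which is not stated, and RNU1-59P is a copy of the U1 small nuclear RNA that can share reads with others.

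What the called genes shared was also read from the annotation, which matched 18435 of the 18976 genes. Of 13705 protein-coding genes 2.55% were at least 1.5-fold higher and 1.83% lower, against 0.44% and 1.02% of 2952 long non-coding RNAs, most of which had few reads. Among protein-coding genes of at least 5 CPM, the share of lower genes went down with exonic length, from 3.71% (72 of 1939) in the shortest of 5 equal classes through 2.58%, 1.91% and 1.65% to 1.24% (24 of 1939) in the longest, and the median difference went from -0.12 to -0.01. Higher genes showed no such order, with 2.94% in the shortest and 3.04% in the longest class. Histone and ribosomal protein genes are short and were among the lower genes, and their part in this order was not tested.

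**Figure D4:**
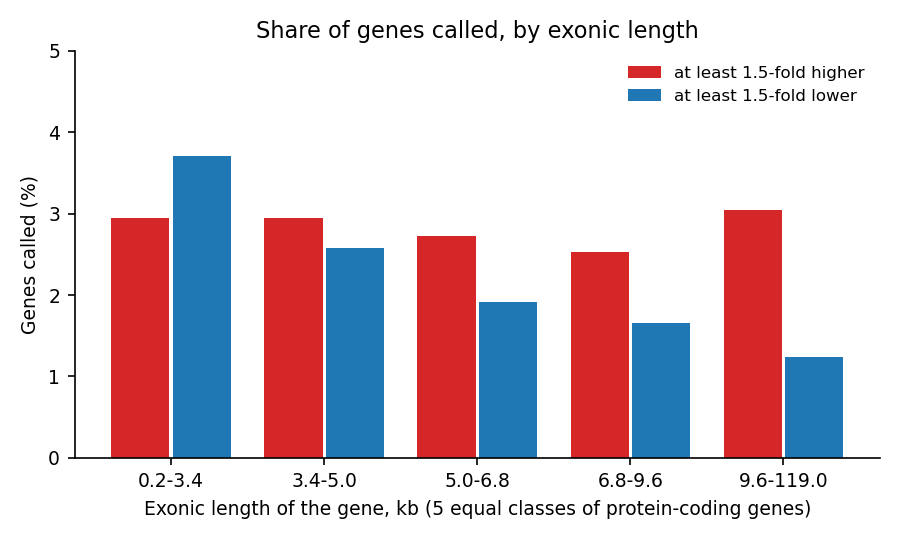
Percentage of protein-coding genes called (y axis) in each of 5 equal classes by exonic length in kb (x axis), for genes of at least 5 CPM in either group, with red bars for genes at least 1.5-fold higher and blue bars for genes at least 1.5-fold lower with BenSer. The blue bars fall from 3.71% to 1.24% and the red bars stay between 2.53% and 3.04%.

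Values with GPNA, which was given at another dose, stand beside those of BenSer as a description only, because both are set against the same control columns. The median difference of interferon-stimulated genes was 0.66 with GPNA and 1.15 with BenSer, and that of amino acid stress genes was 0.33 and 0.71. With GPNA too, 27 of 45 interferon-stimulated genes and 6 of 25 amino acid stress genes were at least 1.5-fold higher, against 64 of all 18976 genes. MX2 had a difference of 1.83 with GPNA, ASNS of 0.71 and GDF15 of 0.50. For S phase, G2/M and histone genes the medians with GPNA were -0.16, -0.12 and -0.05, against -0.57, -0.56 and -0.46 with BenSer. No S phase, G2/M or histone gene was called with GPNA, but calls were few with GPNA in general. Of all 18976 genes only 12 were at least 1.5-fold lower with GPNA and 64 higher. For cholesterol genes the median was 0.08 with GPNA and -0.42 with BenSer. INSIG1, which holds back sterol synthesis, had a difference of 0.83 with GPNA and -0.72 with BenSer, and STARD4 had 0.46 with GPNA. Cytosolic ribosomal proteins had a median of -0.01 with GPNA. Of the genes with the lowest values with BenSer, KRT75 had a difference of -0.07 with GPNA, HMMR of -0.02 and CBX5 of 0.06, whereas CDR1 had -1.25. SLC7A5, SLC3A2 and SLC1A5 had differences of 0.0026, 0.28 and 0.04 with GPNA.

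**Figure D5:**
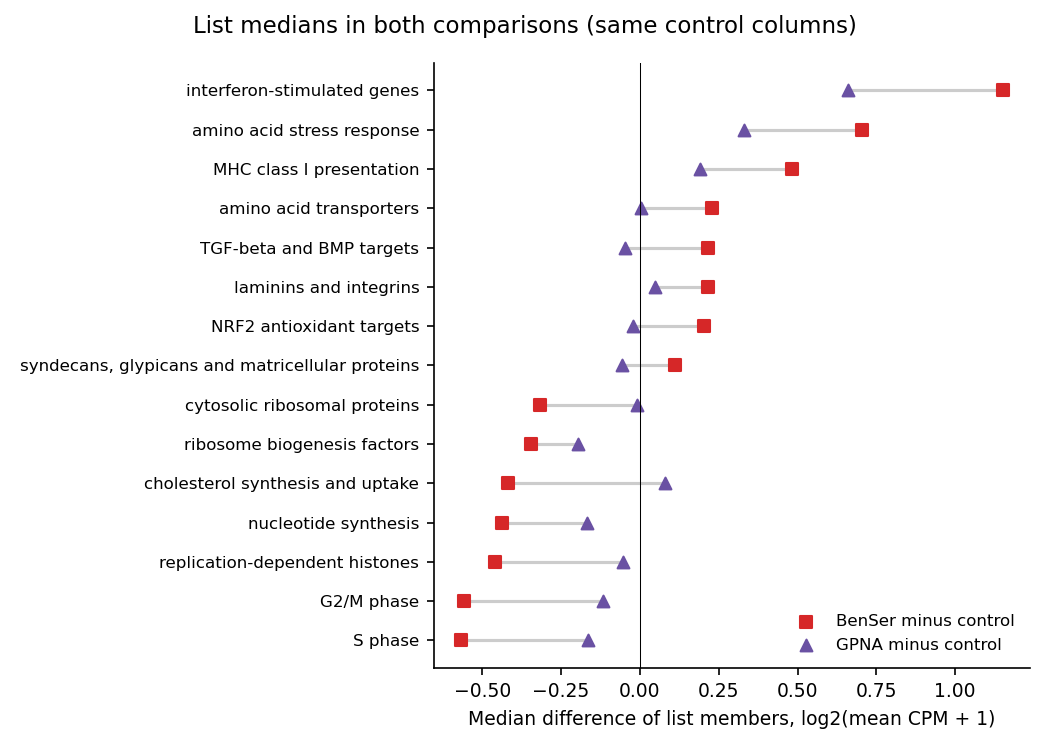
Median difference of the members of 15 pathway lists (x axis, log2 of mean CPM plus 1) with 10 mM BenSer (red squares) and 1 mM GPNA (purple triangles), each minus the same control columns. The medians run from -0.57 to 1.15 with BenSer and from -0.20 to 0.66 with GPNA, and cholesterol genes lie at -0.42 with BenSer and 0.08 with GPNA.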

How the data were processed

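PC-3 libraries were prepared by the authors with a stranded total RNA kit and sequenced in pairs. Reads were trimmed and mapped to hg19/GRCh37.p13 with TopHat2, and the submitters' processing notes also list Bowtie2, HTSeq 0.6.2p2 and DESeq. The authors deposited CPM, that is gene reads over library total; whether counting used the strand is not given in the sources used here. All values (100%) gave whole reads within 0.01 read, and these reads were recovered. The authors' columns of fold change, mean level, p-value and false discovery rate were not used. Columns 1 and 2 of a group carry the names of the labelled samples; 8 other column entries in the 2 tables, 4 of them in the BenSer table, matched no label and were not used, although the methods describe as many replicates per group as the 4 columns.

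The control and BenSer columns 1 and 2 gave 1 merged sample per group, since their chi-square per degree of freedom (over genes of 20 or more reads) was under 1.5. Genes that reached a mean of 5 reads in a group were compared on log2 of mean CPM plus 1, and genes at least 1.5-fold apart were counted, without a test. Named genes were the 15 highest and 15 lowest differences among genes of at least 5 CPM in either group, up to 4 members of that level with the largest absolute difference from each of 45 lists, the genes SLC1A5, SLC7A5 and SLC3A2, and the markers of 6 cell type lists. INSIG1 and PSMB9 were named after their values were seen. The members, lists, motifs and rules were chosen with earlier results of these data known, so no list is independent evidence of its direction.

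Positions and exonic lengths came from GENCODE 44 lifted to GRCh37, and promoters from RefSeq (GRCh38.p14), matched by Ensembl identifier, symbol or synonym for 11767 of 18976 genes, 275 of 371 higher genes and 219 of 300 lower genes. Motifs were searched on both strands in the 250 bases before each start. Alternatives were other pseudocounts, scalings, filters, thresholds, single columns left out, and tests by limma 3.58.1, edgeR 4.0.16 and DESeq2 1.42.0 in R 4.3.3 with Benjamini-Hochberg adjustment, which treat the columns as samples and so compare libraries, not treatments. The fold rule and the tests were tested on simulated data. Python 3.11.15, numpy 2.4.6, pandas 2.3.3, scipy 1.17.1 and matplotlib 3.10.9 were used.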

Additional observations from a re-analysis of the deposited data

How the results depend on the processing

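The counts of 371 higher and 300 lower genes were within 1.5 times of these values under TMM, DESeq2 size factor and listed-gene scaling, without the read filter and with a mean of at least 50 reads. With single columns left out they ranged from 376 to 412 higher and from 320 to 349 lower genes. They moved with the pseudocount, to 1205 higher and 1397 lower genes at 0.1 CPM and to 171 and 102 at 5 CPM, and with the threshold, to 1396 and 1961 genes at a lower threshold of 5/4 and to 83 and 9 at 2-fold. Tests at an adjusted p under 0.05, with no fold threshold and each column taken as a sample, called more genes: 1836 higher and 2657 lower genes by limma, 2821 and 3992 by edgeR and 2016 and 1939 by DESeq2. With the replicate number as a block, limma called 1110 and 1551 genes and edgeR 2558 and 3637. Whether the numbers pair the libraries cannot be told from these columns. Deviations of same-numbered columns from their group means had a correlation of 0.017 over 14004 genes. Columns of a group differ by little more than read sampling, so such a correlation would be near 0 with or without pairing.

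No named gene past 1.5-fold and no list median past it changed direction under another pseudocount, another scaling or a left-out column. Nearer to 0, 4 named genes and 9 list medians changed sign in at least one of these settings, with reported sizes of up to 0.0931 and 0.0602. The medians of AP-1, ERK feedback, MYC and MondoA, heat shock and prostate line genes did so with TMM scaling. Of 209 named genes 31 fell under 1.5-fold and 13 passed it in at least one of these settings. The median of S phase genes passed 1.5-fold at a pseudocount of 0.1 CPM (-0.59) and that of amino acid stress genes fell under it at 5 CPM (0.45). With 1 merged sample per group, the spread between cultures is unknown, and intervals cover counting error only. A count of 3 reads, the limit that 0 reads allow, is 0.130 CPM in the shallower analysed column of the control and 0.0932 CPM in the deeper BenSer column.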

Other observations

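Of 8 androgen-driven prostate genes, 5 were listed, and all 5 were above the control with none past 1.5-fold (median difference 0.35). TMPRSS2, a surface protease, had 16.6 and 16.4 CPM in the control and 24.0 and 24.3 CPM with BenSer (0.52), and SLC45A3, the prostein gene, had 13.6 and 13.3 CPM against 16.3 and 15.3 CPM (0.22). The line marker CAV1, of caveolae, had 308 and 309 CPM in the control and 212 and 209 CPM with BenSer (-0.55), whereas KRT19 had 667 and 670.2 CPM against 781 and 774 CPM (0.22).

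By chromosome, the share of genes at least 1.5-fold higher was 0.911% (7 of 768) on chromosome 16 and 3.25% (33 of 1016) on chromosome 11. These were the lowest and highest among the autosomes, picked after the values were seen, against 1.96% of all genes, and the differences were not tested. None of the 17 mitochondrial genes was called, which says little for so few genes at such shares.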
